A study of Mus musculus with 6 samples.

Results

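Amino acid breakdown and the urea cycle are core tasks of the hepatocyte. Enzymes of each pathway strip nitrogen from an amino acid or open its carbon skeleton, and the urea cycle turns the ammonia set free into urea for excretion. Most of these enzymes are made at high levels in liver and at low levels elsewhere, and several are graded between the periportal and the pericentral ends of the liver lobule. The genes described here are a named list of 44 such enzymes, in 11 pathways. They were taken by gene symbol, with every probe that the array's platform annotation gives to that symbol. In all, 40 of the 44 had a probe, out of 19057 named genes, and 68 probes read them, of 45281 on the array. Sds, Sdsl, Gls2 and Got1 were not analysed here.

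Total RNA of 3 tumours of the liver, and of adjacent liver for each, was read on 6 Illumina bead arrays. The tumour group and the adjacent group shared everything else that the labels give. All animals were C57BL/6J mice that received 3e+10 particles of the vector AAV-Rian-CMV by vein on the day after birth, and tissue was taken at 6 months. AAV is an adeno-associated virus, here built to insert at the Rian locus, and CMV is the viral promoter element named in the labels. No uninjected liver was among the arrays, so the reference is liver next to a tumour that received the same vector. The labels do not say how much tumour or normal tissue each piece held. The titles give a tumour and the liver next to it the same animal number, 1293, 1309 or 1316, although another label gives a different number for the tumour of 1316.

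Signals were compared on the log2 scale after background correction and quantile normalization. A normalised log2 value under 6.84 to 6.97, depending on the array, was not above background. A gene was read from its brightest probe, and a call means an adjusted p under 0.05 with limma over all 45281 probes. The median raw signal was 138.4 to 160.5 per array, and 29.2% to 31.7% of probes were above background. Animal 1316 had the most genes that differed between its tumour and its adjacent liver. Named genes above background on at least 3 arrays numbered 8298. Of these, 573 were lower in the tumour of 1316 by over 1 log2 unit, against 192 in animal 1293 and 10 in animal 1309. The counts higher by as much were 608, 390 and 244. The mean absolute deviation from the tumour mean was 0.18 for the tumour of 1316, 0.17 for that of 1309 and 0.13 for that of 1293 (log2). There were 3 arrays per group, which bounds how precise each value can be. In bulk tissue, fewer cells of a type and less RNA per cell cannot be told apart.

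The tissue read as liver in both groups. Of 11 hepatocyte markers measured, 10 were above background, and 2 were called lower in tumours and 0 higher (limma), with 4 of 11 at an unadjusted p under 0.05. All 11 differences were negative, with a median of −0.26 (log2). Alb, the albumin gene, read 7.70 ± 0.10 in adjacent liver and 6.87 ± 0.26 in tumours (log2 signal, SD, n = 3), near background on its probe. The other marker called lower, Ttpa, was above background on all 6 arrays. It read 10.48 ± 0.11 and 9.21 ± 0.71, a difference of −1.27 (adjusted p = 0.0216, limma). Summed linear signals of the hepatocyte list ran from 232168 to 242919 in adjacent liver and from 156814 to 234255 in tumours, lowest in the tumour of 1316. Of other cell types, 5 of 6 cholangiocyte markers were below background on every array, Krt19, Krt7 and Epcam among them. The 6 macrophage markers summed to 3283 to 4808 in adjacent liver and 1065 to 3896 in tumours, lowest in the tumour of 1316. All 6 differences were negative and 0 were called (limma). In animal 1309 the sum was higher in the tumour, 3896 against 3283. The 8 stellate cell and fibroblast markers summed to 8926 to 11010 in adjacent liver and 4612 to 7930 in tumours. Of these 8, Dcn, Reln and Lum were called lower, Lrat (−0.56) and Col1a2 (−0.11) were negative, and Acta2 (1.17), Col3a1 (0.51) and Col1a1 (0.41) were positive (log2), none of the last 5 being called (limma). The 7 endothelial markers summed to 7083 to 10115 and 5779 to 7755, and the 3 erythroid markers to 9614 to 13541 and 9199 to 12285. In both lists 0 markers were called (limma). Of 5 lymphocyte markers, 0 were above background on at least 3 arrays. The part of these differences in the results below was not tested.

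Across the list, genes read higher in tumours more often than lower. The list was chosen with earlier results of these data known, so the shares below describe it and are not an independent test. Of the 40 measured members 11 were called higher and 2 lower, which is 27.5% and 5.0% of them. Among all named genes 3.64% were called higher and 1.56% lower. Among the 8298 named genes above background on at least 3 arrays, 37 of the members included, the shares were 7.94% and 3.51%, so the share of members called lower lay near the background. The median difference of the 40 members was 0.34 (log2, tumour minus adjacent), against −0.01 over all named genes and −0.02 over those above background. With the animal as a replicate block, 14 members were called higher and 2 lower, against 4.56% and 3.11% of all named genes. With arrays scaled to their medians in place of quantile normalization, the split was 8 higher and 0 lower, against 3.96% and 0.682% of all named genes, with 5 of 40 lower at an unadjusted p under 0.05 (limma). Without both arrays of animal 1316 it was 4 higher and 0 lower, against 1.72% and 0.299%, again with 5 lower at an unadjusted p under 0.05.

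**Figure D1:**
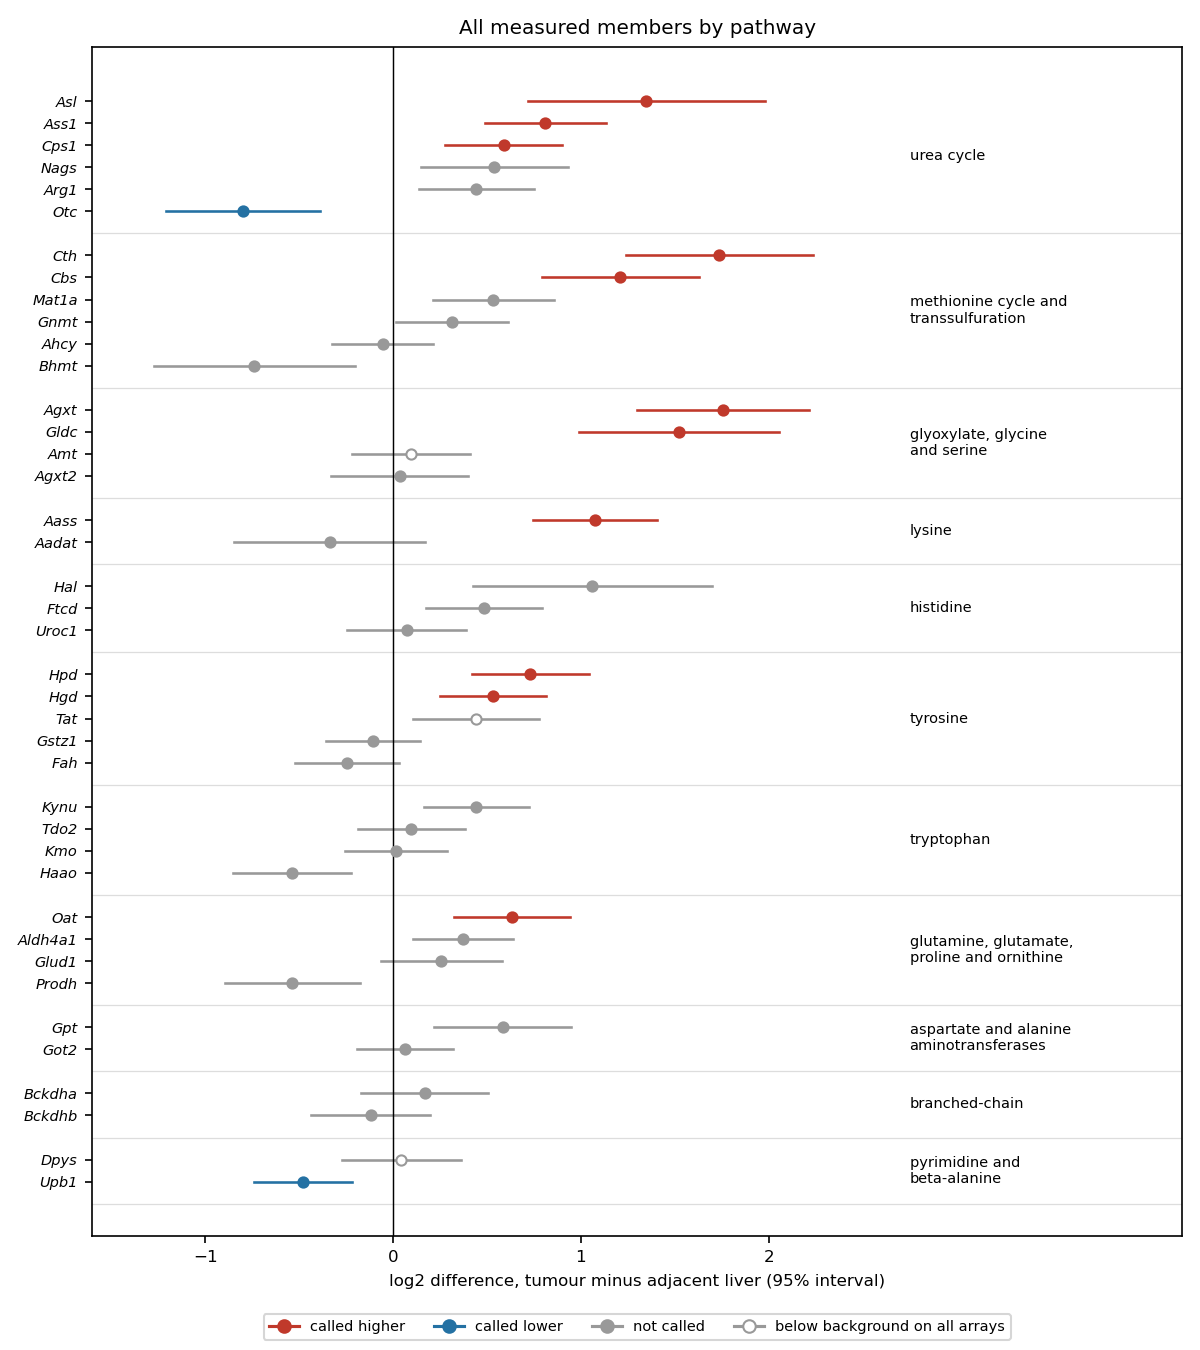
Log2 difference (tumour minus adjacent liver, n = 3 per group) of the 40 measured members by pathway, with 95% intervals from limma before adjustment for multiple tests. Red points are the 11 members called higher, blue points the 2 called lower (Otc and Upb1), grey points those not called, and open points the 3 below background on all arrays (Amt, Tat and Dpys).

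The groups did not overlap for 28 of the 40 members. All 3 tumours lay above all 3 adjacent livers for 21 members (52.5%) and below them for 7 (17.5%). Over the named genes above background the corresponding shares were 18.6% and 17.4%. So the share of members with all tumours higher stood above that background, and the share with all tumours lower did not. As the members were chosen with earlier results known, this too is only a description of the list. Amt, Tat and Dpys, counted in the 40, were below background on all 6 arrays, so they give no fold. Tat is among the 21, and the groups overlapped for Amt and Dpys.

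Of the 6 urea cycle genes, 3 rose and 1 fell. The cycle starts with Cps1, the mitochondrial carbamoyl phosphate synthetase, which is switched on by the product of Nags. Cps1 read 14.56, 14.53 and 14.19 in the adjacent livers of animals 1293, 1309 and 1316, and 15.06, 14.86 and 15.12 in their tumours (log2 signal, the order of animals used throughout). Every tumour lay above every adjacent liver, by a mean of 0.59 (SE 0.14, adjusted p = 0.0436, limma). Nags read 8.96, 8.86 and 8.36 beside tumours and 9.31, 8.99 and 9.51 in them, and did not pass (adjusted p = 0.153, limma).

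Otc, ornithine transcarbamylase, joins carbamoyl phosphate to ornithine inside the mitochondrion. It went the other way, with 8.88, 8.95 and 8.77 in adjacent livers and 8.23, 8.40 and 7.58 in tumours. The groups did not overlap, and the tumour of 1316 was the lowest. The mean fell by 0.80 on the log2 scale (SE 0.19, 1.74-fold lower, adjusted p = 0.0399, limma). The probe was dim, with raw signals of 289.7 to 541.1 where array background was 168.5 to 191.7. Over the 16 alternative settings the difference ran from −0.96 to −0.40, and it passed in 3 (limma). A second Otc probe was under background throughout and gives no reading.

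The cytosolic steps follow. Ass1, argininosuccinate synthetase, read 14.01, 14.07 and 14.16 in adjacent livers and 14.92, 14.61 and 15.14 in tumours, a rise of 0.81 (SE 0.15, 1.75-fold, adjusted p = 0.0101, limma). Asl, argininosuccinate lyase, had the widest change of the cycle. It read 11.38, 12.26 and 11.36 beside tumours and 12.63, 12.70 and 13.71 in them, a rise of 1.35 (SE 0.29, 2.55-fold, adjusted p = 0.0251, limma). The groups were apart, but the difference within animals ran from 0.44 in 1309 to 2.36 in 1316. The other Asl probe rose by 1.44 (adjusted p = 0.0179, limma).

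Arg1, the liver arginase that releases urea, read 14.65, 14.74 and 14.34 in adjacent livers and 14.94, 14.96 and 15.17 in tumours. Its brightest probe differed by 0.44 and did not pass (SE 0.14, adjusted p = 0.132, limma), while its other probe, at 0.79 (SE 0.16), did (adjusted p = 0.0199). No array lay in the other group's range on that brightest probe. Leaving out 1 array at a time ended the call of Ass1 without the tumour of 1293 (adjusted p = 0.0602). It ended that of Asl without the adjacent liver of 1293 or of 1316, with adjusted p-values up to 0.119. Cps1 and Otc passed only when the tumour of 1309 was the array left out, and the adjusted p reached 0.166 and 0.140 without other arrays.

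**Figure D2:**
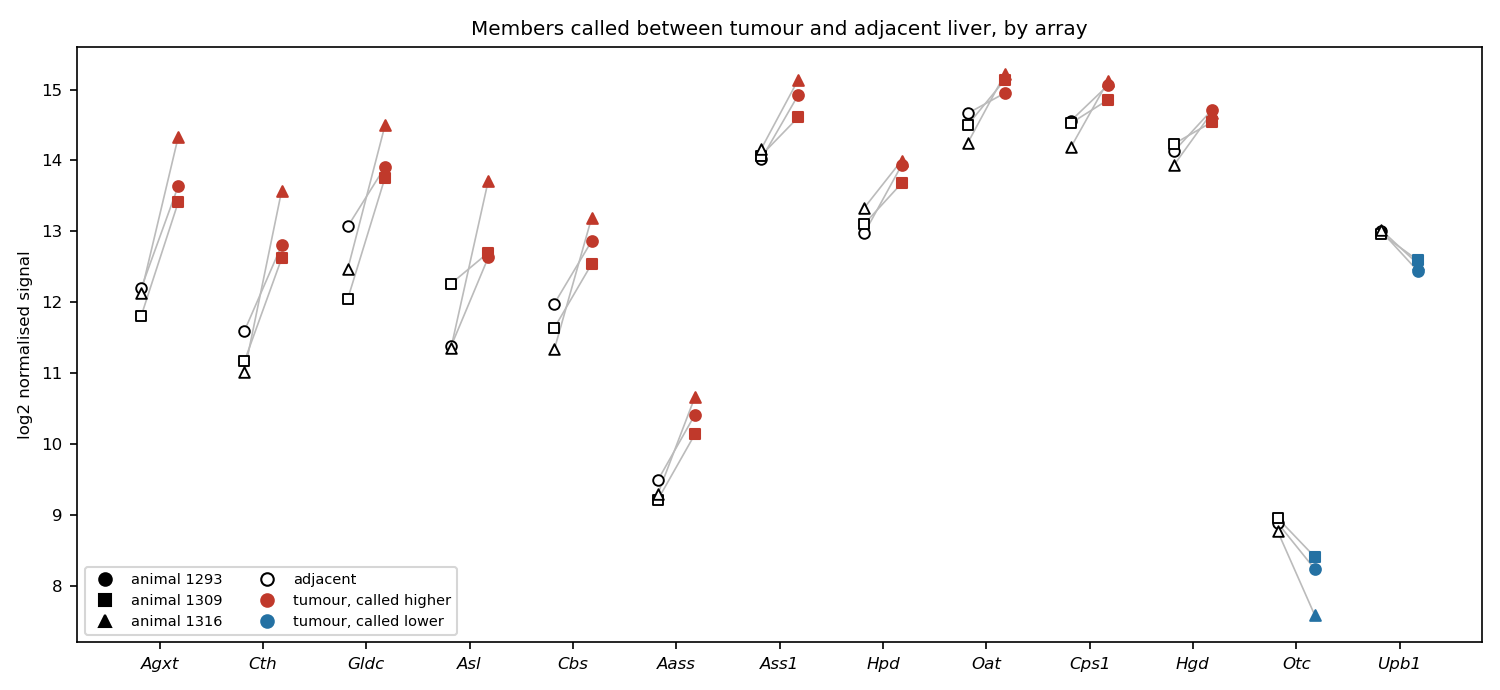
Normalised log2 signal of the 13 called members on each of the 6 arrays. Open symbols are adjacent livers, filled symbols tumours (red called higher, blue called lower), symbol shapes the 3 animals, and grey lines join the tissues of 1 animal. For each of these genes all 3 tumours lie on 1 side of all 3 adjacent livers, as in Agxt, where the tumours read 13.42 to 14.34 and the adjacent livers 11.80 to 12.19.

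Homocysteine, the branch point of methionine breakdown, is either methylated back to methionine or sent through transsulfuration to cysteine. Both transsulfuration enzymes rose. Cbs, cystathionine beta-synthase, read 11.98, 11.64 and 11.34 in adjacent livers and 12.86, 12.54 and 13.19 in tumours. That is a rise of 1.21 (SE 0.19, 2.31-fold, adjusted p = 0.0041, limma), and the second Cbs probe gave 1.20. Cth, cystathionine gamma-lyase, read 11.60, 11.17 and 11.02 beside tumours and 12.80, 12.62 and 13.57 in them, a rise of 1.74 (SE 0.23, 3.33-fold, adjusted p = 0.00114, limma). Its dimmer probe was under background throughout and gives no reading. In each of these genes all 3 tumours lay above all 3 adjacent livers, and the calls held without any 1 array.

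Of the other 4 methionine genes none was called on its brightest probe (limma), and 3 had an unadjusted p under 0.05. Mat1a, the liver form of methionine adenosyltransferase, read 14.62, 15.01 and 15.02 in adjacent livers and 15.34, 15.32 and 15.58 in tumours, a difference of 0.54 (SE 0.15, adjusted p = 0.0749, limma). With the animal as a replicate block it passed (adjusted p = 0.0443, limma), while leaving out 1 array took the adjusted p up to 0.268. Gnmt, which uses up S-adenosylmethionine by methylating glycine, differed by 0.32 on its brightest probe (adjusted p = 0.306) and by 0.68 on another (adjusted p = 0.0454), with limma. Ahcy, which splits S-adenosylhomocysteine, differed by −0.05 (95% interval −0.32 to 0.22) on its brightest probe and by 0.70 on another that was also above background, so its probes turn opposite ways and neither passed.

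Bhmt, the betaine-dependent enzyme that remethylates homocysteine, read lower in all 3 tumours. The adjacent livers gave 11.15, 10.35 and 10.06 and the tumours 10.04, 9.88 and 9.43. The spread among adjacent livers was wide (SD 0.56) and followed the animal. The difference of −0.74 (SE 0.25) did not pass (adjusted p = 0.153), but did with the animal as a replicate block (adjusted p = 0.0149, limma). Without the adjacent liver of 1293 it was −0.42, and with 1 array left out it ran from −0.97 to −0.42, with an adjusted p up to 0.441.

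Glyoxylate and glycine enzymes held the largest fitted rise of the list. Agxt turns glyoxylate and alanine into glycine and pyruvate. It read 12.19, 11.80 and 12.13 in adjacent livers and 13.64, 13.42 and 14.34 in tumours, a rise of 1.76 (SE 0.21, 3.38-fold, adjusted p = 0.00057, limma). Gldc, the decarboxylase of the glycine cleavage system, read 13.07, 12.05 and 12.47 beside tumours and 13.91, 13.76 and 14.49 in them, a rise of 1.52 (SE 0.24, 2.88-fold, adjusted p = 0.00445, limma). The second Gldc probe rose by 1.82. Without both arrays of animal 1316 Gldc just missed the threshold (1.27, adjusted p = 0.0522, limma).

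Agxt2, a mitochondrial aminotransferase that shares the glyoxylate reaction, gave 11.33, 11.32 and 10.79 beside tumours and 11.29, 10.96 and 11.30 in them. The groups overlapped, and its 3 probes differed by 0.04 to 0.06, with a 95% interval of −0.33 to 0.40 on the brightest. Amt, the aminomethyltransferase that works beside the Gldc product, could not be read.

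Lysine breakdown begins with Aass, which joins lysine to 2-oxoglutarate and splits the product. Aass read 9.48, 9.21 and 9.29 in adjacent livers and 10.41, 10.14 and 10.66 in tumours. The rise was 1.08 (SE 0.15, 2.11-fold, adjusted p = 0.00205, limma), and its dimmer probes rose by 1.75 and 1.69, both called. Aadat, an aminotransferase further down that also handles kynurenine, differed by −0.34 (SE 0.23, adjusted p = 0.609, limma), and its groups overlapped.

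Of the 3 histidine enzymes none was called (limma), and 2 had an unadjusted p under 0.05. Hal, histidine ammonia-lyase, read 12.88, 11.97 and 13.08 in adjacent livers and 13.81, 13.12 and 14.18 in tumours. The spread among animals was wide (SD 0.59 beside tumours and 0.54 in them), and within each animal the tumour was higher, by 0.93, 1.15 and 1.10. The mean difference of 1.06 (SE 0.29) had an adjusted p = 0.0757, and with the animal as a replicate block an adjusted p = 0.000696 (limma). It also passed without the tumour of 1309 (adjusted p = 0.0113), but without another array the adjusted p was up to 0.256. Ftcd, which closes the pathway by passing the formimino group to folate, differed by 0.49 (SE 0.14, adjusted p = 0.0955), and Uroc1, urocanase, by 0.07 (95% interval −0.24 to 0.39).

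Tyrosine is broken down in a straight line by Tat, Hpd, Hgd, Gstz1 and Fah, and the middle steps rose. Hpd, 4-hydroxyphenylpyruvate dioxygenase, read 12.98, 13.10 and 13.33 in adjacent livers and 13.93, 13.68 and 14.00 in tumours, a rise of 0.73 (SE 0.14, 1.66-fold, adjusted p = 0.0147, limma). Hgd, homogentisate dioxygenase, read 14.14, 14.24 and 13.94 beside tumours and 14.71, 14.54 and 14.67 in them, a rise of 0.53 (SE 0.13, 1.45-fold, adjusted p = 0.044, limma). In both genes no tumour overlapped an adjacent liver. Both calls depended on single arrays: Hpd passed only without the adjacent liver of 1316 or the tumour of 1309, Hgd only without the tumour of 1309, and the adjusted p otherwise reached 0.0800 and 0.169.

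The last steps did not follow. Fah, whose loss causes tyrosinaemia, read 14.52, 14.59 and 14.68 beside tumours and 14.29, 14.51 and 14.26 in them, a difference of −0.25 (95% interval −0.52 to 0.03, adjusted p = 0.433, limma). Gstz1, maleylacetoacetate isomerase, differed by −0.11 (95% interval −0.36 to 0.15).

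Of the 4 tryptophan enzymes none was called (limma), and 2 had an unadjusted p under 0.05, with opposite signs. Tdo2, the dioxygenase that opens the pathway, differed by 0.10 (95% interval −0.19 to 0.38), and Kmo, kynurenine 3-monooxygenase, by 0.02 (95% interval −0.25 to 0.29). Kynu, kynureninase, read higher in tumours by 0.44 (SE 0.13, adjusted p = 0.0931).

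Haao, which makes the precursor of quinolinate, read 13.94, 13.89 and 14.05 in adjacent livers and 13.45, 13.65 and 13.16 in tumours, without overlap. The difference of −0.54 (SE 0.14) had an adjusted p = 0.0691, and 1 of its other probes was called lower at −0.76 (adjusted p = 0.033, limma). Without the tumour of 1309, the brightest probe passed too (adjusted p = 0.025), and without another array its adjusted p was up to 0.269.

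Among enzymes of glutamate, proline and ornithine, Oat rose. Oat, ornithine aminotransferase, is a pericentral enzyme that turns ornithine toward glutamate. It read 14.66, 14.50 and 14.24 in adjacent livers and 14.95, 15.14 and 15.22 in tumours, a rise of 0.63 (SE 0.14, 1.55-fold, adjusted p = 0.0317, limma). The call held only without the adjacent liver of 1293, and the adjusted p rose to 0.130 without another array. Prodh, which opens proline breakdown, read 12.42, 12.62 and 12.74 beside tumours and 11.92, 12.42 and 11.84 in them. Its difference of −0.54 (SE 0.16) had an adjusted p = 0.117, an adjusted p = 0.0146 without the tumour of 1309, and up to 0.379 without another array. Aldh4a1, the next proline enzyme, differed by 0.37 (adjusted p = 0.144), and Glud1, glutamate dehydrogenase, by 0.26 (adjusted p = 0.501), both with limma.

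Gpt, alanine aminotransferase, read 12.83, 12.86 and 13.04 in adjacent livers and 13.36, 13.23 and 13.89 in tumours. The difference of 0.58 (SE 0.17) had an adjusted p = 0.092. It passed with the animal as a replicate block (adjusted p = 0.0335) and without the tumour of 1309 (adjusted p = 0.0347, limma). Without the tumour of 1316 it was 0.38 (adjusted p = 0.315). Got2, the mitochondrial aspartate aminotransferase, differed by 0.07 (95% interval −0.19 to 0.32), and its second probe, above background on 2 of 3 arrays in each group, by −0.33. The branched-chain dehydrogenase subunit genes Bckdha and Bckdhb differed by 0.17 and −0.12, with overlapping groups, and 0 of the 2 had an unadjusted p under 0.05 (limma).

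Upb1, beta-ureidopropionase, makes beta-alanine from the products of pyrimidine breakdown. It read 13.01, 12.97 and 13.02 in adjacent livers and 12.43, 12.59 and 12.54 in tumours. The mean fell by 0.48 on the log2 scale (SE 0.12, 1.39-fold lower, adjusted p = 0.0486, limma), and both other probes were also called lower, at −0.63 and −0.55. The brightest probe did not pass with the animal as a replicate block (adjusted p = 0.0559), nor when any 1 array was left out (adjusted p = 0.0553 to 0.186). Dpys, which acts just before Upb1, could not be read.

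In most members the animals agreed on direction, while the size differed. Tumour and adjacent liver were paired by title, and for 1316 another label gives the tumour a different number. Deviations from group means correlated at 0.09 in that pair, against 0.41 in 1293 and 0.25 in 1309. With this pairing, in 23 members all 3 tumours were higher than their own adjacent liver, in 7 all 3 were lower, and the other 10 were mixed. Tat, below background on all arrays, is among the 23. The share of all named genes with such agreement was not computed, so these counts have no background beside them. Among the 11 members called higher the widest difference was in animal 1316 for 10, the exception being Hpd, and the smallest in animal 1309 for 6. The median difference over the 40 members was 0.29 in animal 1293, 0.22 in 1309 and 0.48 in 1316. In 1316, 8 members were higher by over 1 log2 unit (20.0%), against 7.33% of named genes above background, and 1 was lower by as much (2.5%), against 6.91%. In 1293 the members counted 3 higher (7.5%) and 1 lower (2.5%), against 4.70% and 2.31% of those genes. In 1309 they counted 4 higher and 0 lower, against 2.94% and 0.121%. The tumour of 1316 gave the highest of the 6 readings for 22 members. The share of all named genes with that array highest was not computed. Animal 1316 had the most genes above background differing by over 1 log2 unit in either direction. It had 608 higher and 573 lower, against 390 and 192 in 1293 and 244 and 10 in 1309.

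**Figure D3:**
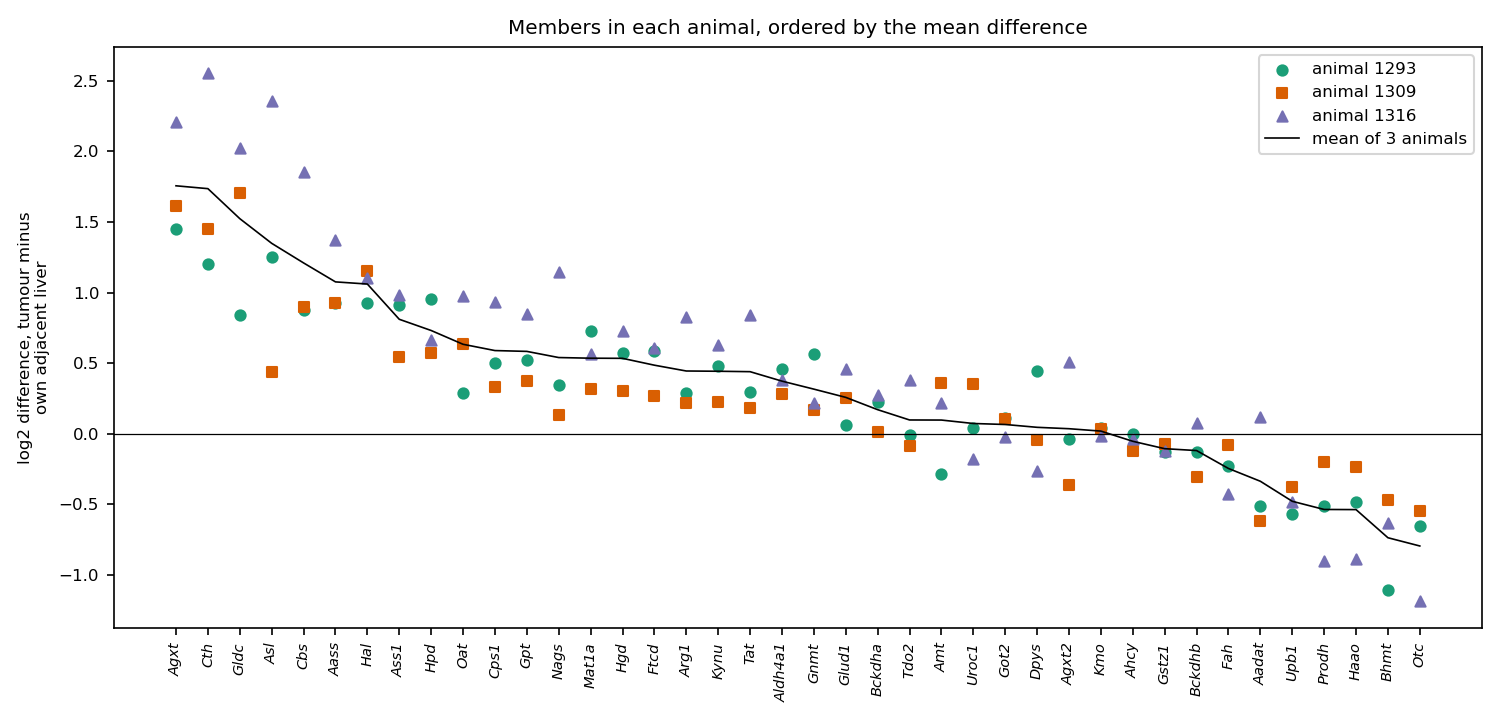
Log2 difference of each tumour from its own adjacent liver for the 40 measured members, ordered by the mean of the 3 animals (black line). Purple triangles (animal 1316) lie highest for 10 of the 11 members called higher, such as Cth at 2.55 against 1.21 and 1.45, and lowest for Otc at −1.19.

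Of the 20 members with several probes, 18 had at least 2 probes above background on at least 3 arrays. The signs agreed within 16 of these 18, and Ahcy and Got2 were split. Probes of a gene could still fall on different sides of the threshold, as in Arg1, Gnmt, Cps1, Hgd and Haao. Over the 68 probes, 18 were called higher and 5 lower, against 2.3% and 1.15% of all probes. These sets are unlike: 61 of the 68 were above background on at least 3 arrays, against 29.2% to 31.7% of all probes per array. The shares among probes above background were not computed.

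**Figure D4:**
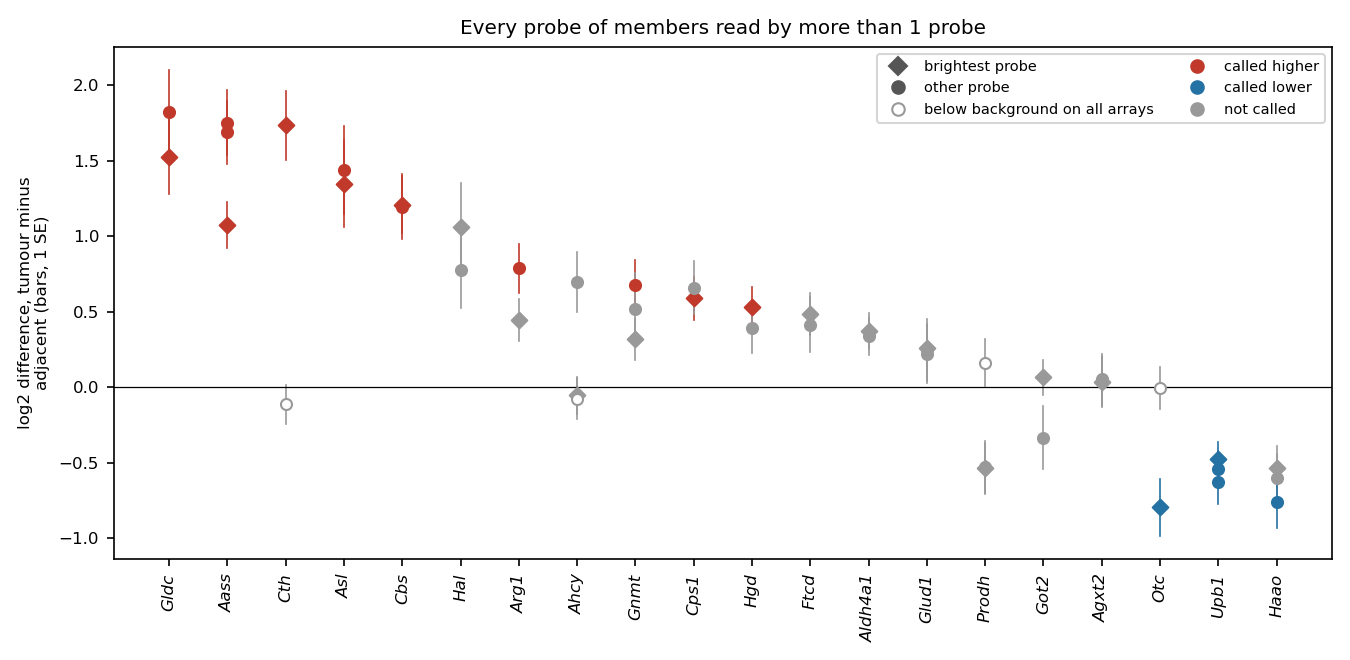
Log2 difference (tumour minus adjacent, bars 1 SE, n = 3 per group) of every probe of the 20 members read by more than 1 probe. Diamonds are the brightest probes, circles the others, open circles probes below background on all arrays, and colours the calls. The open circles of Cth (−0.11), Otc (−0.01), Ahcy (−0.08) and Prodh (0.16) lie near 0.

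Called members differed in how far the call rested on the setting. Cbs, Cth, Agxt and Aass passed in all 16 alternative settings, Gldc in 15 and Ass1 in 13. Hpd passed in 10, Asl in 9, Oat in 8, Hgd in 7 and Cps1 in 6. The members called lower were among the least stable, Upb1 passing in 5 and Otc in 3, although no setting changed the sign of any of the 13.

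**Figure D5:**
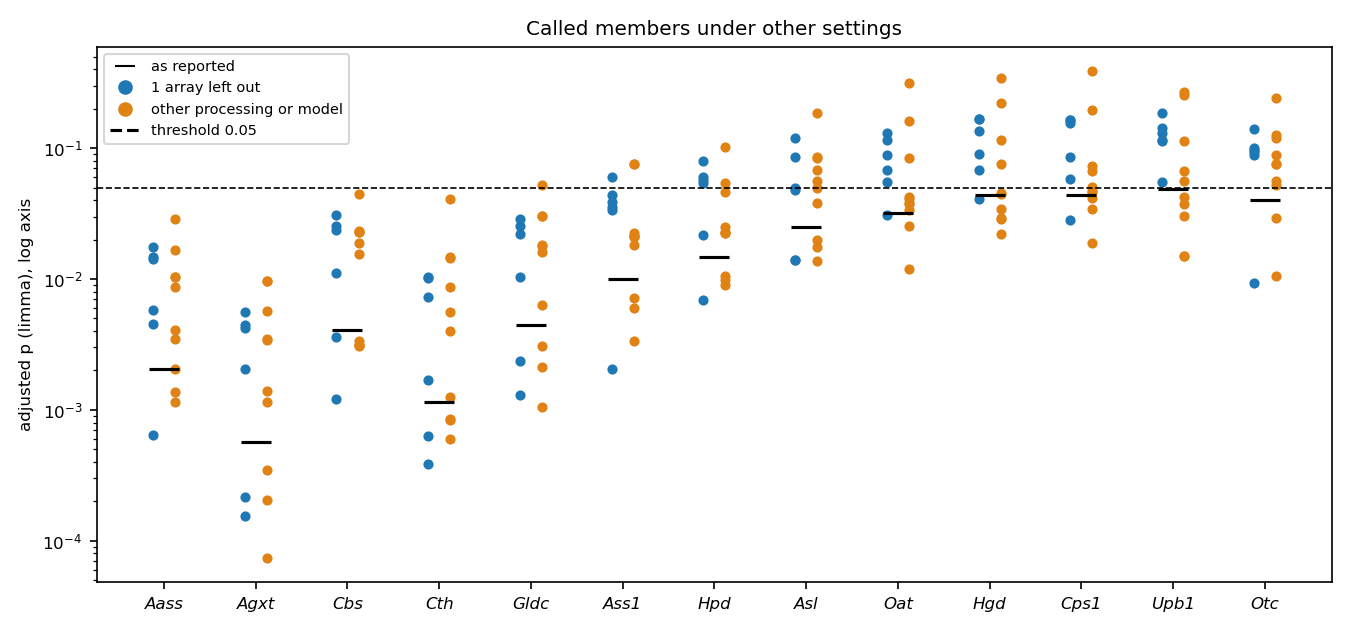
Adjusted p (limma, log axis) of the 13 called members as reported (black bars), with 1 array left out (blue, 6 fits) and under the other 10 settings (orange). The dashed line is the threshold of 0.05, and the points of Aass, Agxt, Cbs and Cth all lie below it, the highest being 0.0449 for Cbs.

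Other enzymes and carriers of the same pathways were read for comparison. Of 84 measured, 66 of them above background on at least 3 arrays, 7 were called higher and 2 lower. That is 8.33% and 2.38%, against 3.64% and 1.56% of all named genes. Among named genes above background on at least 3 arrays the shares were 7.94% and 3.51%. The 84 enzymes and carriers lay near these last shares. Their median difference was 0.01 (log2). Asns, asparagine synthetase, read 8.57, 7.48 and 6.97 in adjacent livers and 10.72, 10.62 and 11.45 in tumours, a rise of 3.26 (SE 0.33, adjusted p = 0.000156, limma). Acmsd, which diverts tryptophan carbon away from quinolinate, rose by 2.43 (SE 0.27) and was above background on 2 of 3 adjacent arrays. Psat1, of serine synthesis, was below background in adjacent liver and at least 2.59-fold higher in tumours, measured against the lowest signal above background on each array. Hdc, which makes histamine from histidine, rose by 1.20 (SE 0.21).

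Pccb, a propionyl-CoA carboxylase subunit gene, fell by 0.75 (SE 0.15), and Dmgdh, dimethylglycine dehydrogenase, by 0.54 (SE 0.13). Glul, the pericentral glutamine synthetase, read 8.44, 7.85 and 7.85 beside tumours and 7.79, 7.57 and 6.50 in them, where 2 of 3 arrays were above background. Its difference of −0.76 (SE 0.28) had an adjusted p = 0.211, and 0.0365 with the animal as a replicate block (limma). Slc25a15, chosen for mention after its values were seen because it carries ornithine to Otc, rose by 0.92 (SE 0.21, adjusted p = 0.0331, limma) where Otc itself fell. The other genes called higher were Dlst and Gpt2, also named after their values were seen.

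Several members are known for their zone in the liver lobule. Of 13 measured genes of a periportal list, 9 are members, and of these 4 were called higher (Cps1, Ass1, Asl and Agxt) and 1 lower (Otc), with a median of 0.59. The 4 that are not members had a median of 0.63, with Aldh1b1 (2.70) and G6pc (0.80) called higher and Pck1 (0.46) and Cdh1 (−0.77) not called (limma). Of 12 measured genes of a pericentral list only Oat is a member. The other 11 had a median of −1.03 with 1 called lower and 9 negative. Among them Cyp1a2, named after its values were seen, differed by −1.40, −0.53 and −4.67 in the 3 animals and was not called (limma).

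Promoters were available for 32 of the 40 measured members, as 250 bases before and 50 after the RefSeq gene start on GRCm38.p6. That of the member with the largest fitted rise and that of the member with the largest fitted fall among called members are shown, so that their starts can be compared. Capitals mark the 50 bases from the start onward.
Agxt, chr1:93134990-93135289, plus strand: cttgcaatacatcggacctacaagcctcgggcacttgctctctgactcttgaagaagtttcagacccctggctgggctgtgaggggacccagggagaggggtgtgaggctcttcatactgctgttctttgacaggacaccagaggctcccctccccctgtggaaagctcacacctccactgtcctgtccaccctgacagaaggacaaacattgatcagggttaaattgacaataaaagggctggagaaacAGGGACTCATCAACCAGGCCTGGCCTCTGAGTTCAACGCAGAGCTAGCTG
Otc, chrX:10252055-10252354, plus strand: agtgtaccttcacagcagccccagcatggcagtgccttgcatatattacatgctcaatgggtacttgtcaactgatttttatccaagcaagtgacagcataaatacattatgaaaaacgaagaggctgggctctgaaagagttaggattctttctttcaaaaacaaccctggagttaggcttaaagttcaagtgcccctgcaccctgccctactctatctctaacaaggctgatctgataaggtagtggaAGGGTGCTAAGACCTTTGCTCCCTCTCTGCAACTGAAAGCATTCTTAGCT
The Agxt window has 54.3% G and C and the Otc window 44.3%.

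Each window was searched on both strands for 5 motifs. TGATGNAA, an element bound by ATF4 with C/EBP factors, was in 0 of 35 member promoters and in 3.97% of all 32851. TTGCNNAA, a C/EBP motif, was in 4 (11.4%, against 10.8%), those of Aass, Agxt2, Hal and Hgd. TATAAA was in 7 (20.0%, against 13.6%), the glucocorticoid response element in 1 (Gnmt, against 0.475%), and the HNF1 motif in 0 (against 0.00913%). The printed Agxt and Otc windows held none of the 5. A match is a description of these letters and not a site.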

How the data were processed

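The deposited raw table gives linear intensity for each of 45281 probes, without background subtraction or normalization as far as its values show. Per the submitters' processing notes GenomeStudio was used, with no role given. A further table, on the log2 scale, was deposited by the authors as processed; quantile normalization of the raw table, with no background step, rebuilt it to within 0.00504. No slide or scan batch is given.

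Intensities were corrected with normexp (offset 50), quantile-normalized and put on the log2 scale, and the 2 groups were set against each other with lmFit and eBayes (limma 3.58.1, R 4.3.3), with Benjamini-Hochberg adjustment over all probes. Background per array was the log2 signal mode plus 3 SDs, taken from the values under that mode. The fit was tested on simulated data. Probe names came from the platform annotation: 34885 probes had 1 symbol, 18 several and 10378 none listed, and a gene table changed 0 symbols. Members and lists were chosen with earlier results of these data known. All members are named, and of partner genes up to 4 called ones in each direction with the smallest p, plus Glul and Asns whatever their values. Slc25a15, Dlst and Gpt2 lie outside that rule and were named after their values were seen. Samples are replicates by their titles, which give tumour and adjacent liver of an animal the same number. Deviations from group means correlated at 0.41, 0.25 and 0.09 within animals 1293, 1309 and 1316, over 14026 probes, and at −0.27 to 0.03 between animals. The replicate block is the animal as a fixed term.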

Additional observations from a re-analysis of the deposited data

How the results depend on the processing

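Of 637 refits of single members under 16 alternatives, 545 kept direction and side of the threshold, 68 lost a call, 11 gained a call and 13 turned sign, the last in 8 uncalled genes. With probes averaged these were Ahcy (0.19) and Got2 (−0.13), and without animal 1316 Agxt2 (−0.20) and Tdo2 (−0.0459). With 1 array left out, Agxt2 ran from −0.14 to 0.149, Amt from −0.00975 to 0.214, Uroc1 from −0.0621 to 0.200, Kmo from −0.0311 to 0.0794 and Dpys from −0.0577 to 0.144.

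The 11 members called higher became 5 with an offset of 16 and 4 without animal 1316, and between 6 (tumour of 1293 omitted) and 12 (tumour of 1309 omitted) when 1 array was left out. The 2 called lower became 0 with median scaling, an offset of 16, a variance trend or no animal 1316, 1 with no background correction, the authors' values, dim probes left out or probes averaged, and 0 to 3 with 1 array left out, 3 without the tumour of 1309 and 0 without any other. At an unadjusted p under 0.05 (limma), 5 or 6 were lower in each of these settings. The 7 partner genes called higher became 4 with an offset of 16 or probes averaged, 3 without animal 1316, and between 3 (adjacent liver of 1316 or tumour of 1293 omitted) and 12 (tumour of 1309 omitted) with 1 array left out. The 2 partner genes called lower became 0 with median scaling, an offset of 16 or no animal 1316, 1 with a variance trend, 5 with the animal as a replicate block, and 0 to 4 with 1 array left out, 6 to 13 being lower at an unadjusted p under 0.05 in the settings that gave 0 (limma). The replicate block gave 14 members higher and 2 lower. It added Mat1a, Hal, Gpt and Bhmt, lost Upb1 and changed no other member's call. The random block changed none. Over the alternatives fitted on all probes, 1.72% to 4.82% of named genes were called higher and 0.268% to 3.45% lower. The cause of these changes was not tested. A fold near background understates a change because of the offset.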
